A study of Mus musculus with 12 samples.

Results

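Transcripts of 4 connexin genes, Gja1, Gjb2, Gjb5 and Gjb6, were examined in RNA-seq of mouse skin. They were taken by symbol from a deposited table of 18505 genes, in which they are set beside 11 other connexin genes, and each of the 4 was present once and passed the filter on low values. The values are FPKM, fragment counts scaled to transcript length and to the size of the library. On day 10, IMQ + NS skin held about 4 times the control level of Gja1, while Gjb2 and Gjb6 rose from low control levels to 383 and 23.0 FPKM. Gjb5 lay between 10.6 and 26.5 FPKM in all 12 samples. Between IMQ + BZLF and IMQ + NS skin the ranges of all 4 genes overlapped and none passed the test.

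Connexins are the subunits of gap junctions: they assemble into hexameric hemichannels, and hemichannels of neighbouring cells dock to form a channel that passes ions and small metabolites from cell to cell. Skin expresses several of them in overlapping layers. Gja1 (Cx43) is the most widespread member and is found in keratinocytes, hair follicles, dermal fibroblasts and vessel walls. Gjb2 (Cx26) and Gjb6 (Cx30) are known from hair follicles, sweat glands and thickened epidermis, are scarce in resting mouse epidermis, and cause inherited deafness and skin disease when mutated. Gjb5 (Cx31.1) is a connexin of stratified epithelia, including the upper layers of the epidermis.

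All samples came from wild-type BALB/c mice, which were male and 5 to 6 weeks old per the study's methods, and the back of each mouse was shaved. Control mice (4 samples) received petroleum jelly and carry a treatment label that names no drug. IMQ + NS mice (4 samples) received a cream with imiquimod (IMQ), a Toll-like receptor agonist used to raise psoriasis-like lesions, followed by a saline cover. IMQ + BZLF mice (4 samples) received the same cream followed by a cover with Banzhilian formula (BZLF), an herbal mixture for external use, and the dose given to the sequenced mice is not stated. Treatment was given daily, and skin was taken on day 10. The gauze and film over the saline or BZLF were not described for the control, so IMQ and the dressing cannot be told apart in comparisons with control skin.

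The 12 samples summed to between 444660 and 506622 FPKM. The table gives no read counts, so the number of reads behind each value is unknown here, and the precision of each mean is that of its 4 replicates. Basal keratinocyte markers were present in every sample, with summed levels of 1347 to 5435 FPKM over 6 genes. Control replicate 2 stood apart from the other controls. The sum of 8 inner root sheath markers (Krt25, Krt26, Krt27, Krt28, Krt71, Krt72, Krt73 and Tchh) was 1974 FPKM in this sample and 19.5 to 58.2 FPKM in the other 3 controls, and the sum of 6 proliferation markers was 121.8 FPKM against 12.3 to 20.1 FPKM. Skeletal muscle markers summed to 3498 FPKM in this sample against 7977 to 8647 FPKM, and adipocyte markers to 3798 FPKM against 5759 to 8602 FPKM. In IMQ + NS skin these 2 sums were 668 to 1586 FPKM and 1870 to 2948 FPKM. In IMQ + BZLF skin they were 1122 to 1553 FPKM and 2529 to 3005 FPKM. The part of muscle and fat in the connexin values was not tested. Seminal vesicle genes summed to 37.8 FPKM in control replicate 2 and to 37.2 FPKM in IMQ + BZLF replicate 2 and were near 0 in the other 10 samples. Pancreas acinar genes were not confined to these 2 samples. They summed to 18.6 to 199.3 FPKM in control, 2.10 to 202.7 FPKM in IMQ + NS and 17.5 to 196.6 FPKM in IMQ + BZLF skin. In each group replicate 4 had the lowest of these sums. Comparisons of the 4 genes with the control are therefore given with and without control replicate 2.

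The 4 genes lie at 3 loci of the mouse genome (GENCODE M21 on GRCm38), and in each the whole coding sequence sits in 1 exon. Gja1 spans chr10:56377330-56402513 on the plus strand and codes for 1146 bases. Gjb2 (chr14:57098600-57104702, 678 coding bases) and Gjb6 (chr14:57123303-57133611, 783 coding bases) are neighbours on the minus strand of chromosome 14, separated by 18.6 kb. Gjb5 (chr4:127354809-127358181, 813 coding bases) lies on the minus strand of chromosome 4. The longest run of identical bases between transcripts of any pair of the 4 genes was 20 bases (Gjb2 and Gjb6). Gjb2 overlaps the lncRNA gene Gm32912, which has no row in the table, by 38 bases, and whether reads were counted by strand is not given in the sources used here.

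The 250 bases before the RefSeq start of each gene (GRCm38.p6, read 5′ to 3′ on the gene's own strand) are printed because 3 of the genes moved together and 1 did not. Capitals mark matches, on either strand, to 4 motifs: the AP-1 site, searched as TGANTCA, the GC box, searched as GGGCGG, the TATA box, searched as TATAAA, and the CAAT box, searched as CCAAT.
Gja1, chr10:56377050-56377299, plus strand: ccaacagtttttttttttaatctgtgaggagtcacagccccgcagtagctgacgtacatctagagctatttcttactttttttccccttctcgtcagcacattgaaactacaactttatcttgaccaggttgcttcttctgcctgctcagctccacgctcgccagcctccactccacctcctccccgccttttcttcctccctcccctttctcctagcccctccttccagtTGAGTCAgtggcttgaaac
Gjb2, chr14:57104703-57104952, minus strand: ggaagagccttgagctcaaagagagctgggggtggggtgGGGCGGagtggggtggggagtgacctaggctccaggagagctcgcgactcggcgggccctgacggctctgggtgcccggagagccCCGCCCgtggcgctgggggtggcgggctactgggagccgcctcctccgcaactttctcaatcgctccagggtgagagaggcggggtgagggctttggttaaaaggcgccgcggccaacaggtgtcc
Gjb6, chr14:57133612-57133861, minus strand: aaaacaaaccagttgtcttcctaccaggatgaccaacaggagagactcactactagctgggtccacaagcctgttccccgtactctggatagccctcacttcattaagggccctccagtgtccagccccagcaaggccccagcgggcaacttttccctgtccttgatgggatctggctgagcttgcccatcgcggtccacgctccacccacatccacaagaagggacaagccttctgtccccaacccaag
Gjb5, chr4:127358165-127358414, minus strand: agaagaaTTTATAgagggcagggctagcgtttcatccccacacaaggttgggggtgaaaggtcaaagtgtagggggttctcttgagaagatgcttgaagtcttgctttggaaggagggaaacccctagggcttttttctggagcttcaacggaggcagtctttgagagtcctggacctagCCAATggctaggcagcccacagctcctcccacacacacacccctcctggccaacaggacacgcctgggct
The Gja1 window held 1 AP-1 match, 19 to 13 bases before the start, a motif found in 6.7% of 32851 mouse promoter windows of this length. The Gjb2 window held GC boxes at -211 to -206 and at -126 to -121 and was 69.2% G and C, against a median of 52.4% over all windows, of which 32.7% held a GC box. The Gjb5 window held a TATA box match at -243 to -238 and a CAAT box match at -70 to -66, which 12.4% and 33.8% of windows held. The Gjb6 window held no match to the 4 motifs. Base composition therefore differed between the neighbours Gjb2 and Gjb6 (69.2% and 56.8% G and C). These matches describe the letters of the windows and were not tested for binding.

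The first comparison asked how IMQ treatment followed by saline changed the 4 transcripts. Of the 4 genes, 3 rose in IMQ + NS against control skin and none fell, where 11.4% of the 15288 genes tested rose and 11.0% fell (limma on log2(FPKM + 0.1), with a Benjamini-Hochberg adjusted p under 0.05 and a log2 difference of more than 1 in either direction as the limits). At an unadjusted p below 0.05 and no fold limit, 4 were higher and 0 lower, where 32.5% of the genes tested were higher and 29.1% lower. In whole skin, more cells of a type and more RNA per cell cannot be told apart.

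Gja1, which had the highest level of the connexins analysed here in control skin, measured 58.1, 189.6, 73.5 and 72.8 FPKM in control replicates 1 to 4. It measured 385.7, 333.7, 375.8 and 391.5 FPKM in IMQ + NS replicates 1 to 4. Control replicate 2 was the highest control, and even so lay below every IMQ + NS sample. The means were 98.5 ± 61.2 and 371.7 ± 26.1 FPKM (SD, n = 4 each). The log2 fold change was 2.08 (SE 0.32, 95% interval 1.35 to 2.81, 4.23-fold, adjusted p = 0.000768 by limma). Without control replicate 2 it was 2.45 (SE 0.098, 5.47-fold). The groups did not overlap, which gave an exact two-sided permutation p of 0.0286, the smallest that 70 assignments of 4 and 4 samples allow.

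Gjb2 was close to the bottom of its range in 3 of the 4 controls. Its control values were 4.83, 103.4, 2.82 and 2.93 FPKM in replicates 1 to 4, and its IMQ + NS values were 370.6, 336.4, 384.0 and 439.1 FPKM. Control values ran from under 5 FPKM to 103.4 FPKM in replicate 2, and all IMQ + NS samples lay above them. The means were 28.5 ± 50.0 and 382.5 ± 42.7 FPKM (SD, n = 4 each). The log2 fold change was 5.54 (SE 1.03, 95% interval 3.20 to 7.87, 46.5-fold, adjusted p = 0.00198 by limma), and 6.76 (SE 0.18, 108-fold) without control replicate 2. The size of the Gjb2 rise thus depended on that library by more than a factor of 2, whereas its direction did not.

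Gjb6, the neighbour of Gjb2, was likewise lowest in controls 1, 3 and 4, at a lower level throughout. It measured 0.303, 3.87, 0.258 and 0.260 FPKM in control replicates 1 to 4 and 22.9, 19.8, 24.8 and 24.5 FPKM in IMQ + NS replicates 1 to 4. Again control replicate 2 was high and the groups did not overlap. The means were 1.17 ± 1.80 and 23.0 ± 2.31 FPKM (SD, n = 4 each). The log2 fold change was 5.09 (SE 0.72, 95% interval 3.46 to 6.72, 34.2-fold, adjusted p = 0.000469 by limma), and 5.95 (SE 0.11, 61.7-fold) without control replicate 2. With control values near the constant of 0.1 that was added before the logarithm, the fold of Gjb6 is understated, and it was 3.75 to 5.40 on the log2 scale over the other constants, scalings and filters tried.

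Gjb5 behaved differently. Its control values were 12.3, 10.6, 15.9 and 16.8 FPKM in replicates 1 to 4, and its IMQ + NS values were 18.8, 19.8, 16.2 and 21.3 FPKM. IMQ + NS replicate 3 fell inside the control range, so the groups overlapped, and control replicate 2 was the lowest rather than the highest control. The means were 13.9 ± 2.94 and 19.0 ± 2.14 FPKM (SD, n = 4 each). The log2 fold change was 0.47 (SE 0.16, 95% interval 0.11 to 0.83, 1.38-fold). Its adjusted p by limma was 0.0332, but the difference was below the fold limit, and the exact two-sided permutation p was 0.0571. The adjusted p by limma was 0.0667 to 0.0884 without control replicate 1 or IMQ + NS replicate 1, 2 or 4. Without control replicate 2 the log2 fold change was 0.34.

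**Figure D1:**
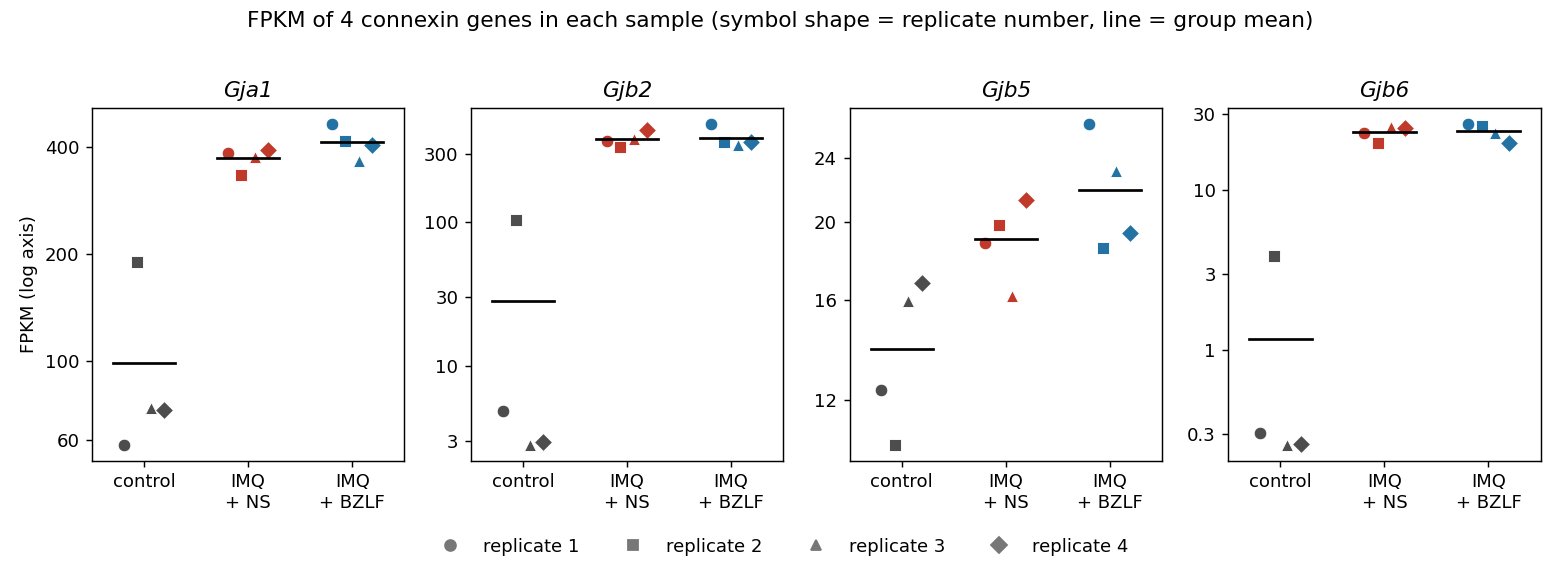
FPKM (log axis) of Gja1, Gjb2, Gjb5 and Gjb6 in the 4 samples of each group. Symbols show the replicate number and lines the group means. Control replicate 2 (square) lies above the other controls for Gja1 (189.6 FPKM), Gjb2 (103.4 FPKM) and Gjb6 (3.87 FPKM) and below them for Gjb5 (10.6 FPKM), and the IMQ + NS and IMQ + BZLF points overlap for every gene.

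The second comparison asked whether BZLF after IMQ left these transcripts at the level seen with saline. Of the 4 genes, 0 rose and 0 fell in IMQ + BZLF against IMQ + NS skin by limma, where 0.321% of the genes tested rose and 2.20% fell, and 0 passed an unadjusted p of 0.05, at which 7.96% of the genes tested were higher and 14.8% lower. Gja1 measured 464.5, 416.7, 364.3 and 405.7 FPKM in IMQ + BZLF replicates 1 to 4 (mean 412.8 ± 41.2, SD, n = 4), and replicate 3 lay inside the IMQ + NS range. The log2 difference was 0.15 (SE 0.087, 95% interval -0.05 to 0.35, adjusted p = 0.352 by limma).

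Gjb2 measured 487.1, 363.7, 345.8 and 365.3 FPKM in IMQ + BZLF replicates 1 to 4 (mean 390.5 ± 65.0, SD, n = 4). Replicate 1 was the highest value of the gene in the data, and the other 3 samples lay within the IMQ + NS range. The log2 difference was 0.02 (SE 0.12, 95% interval -0.25 to 0.30, adjusted p = 0.938 by limma), and it was -0.09 without IMQ + BZLF replicate 1.

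Gjb6 measured 26.0, 25.1, 22.7 and 19.7 FPKM in IMQ + BZLF replicates 1 to 4 (mean 23.4 ± 2.84, SD, n = 4), again overlapping with IMQ + NS. The log2 difference was 0.02 (SE 0.10, 95% interval -0.21 to 0.25, adjusted p = 0.930 by limma). Gjb5 measured 26.5, 18.6, 23.2 and 19.4 FPKM (mean 21.9 ± 3.65, SD, n = 4), with replicates 1 and 3 above and replicates 2 and 4 within the IMQ + NS range. Its log2 difference was 0.19 (SE 0.12, 95% interval -0.09 to 0.48, adjusted p = 0.391 by limma). The intervals leave room for a change of the 4 genes of up to 0.48 on the log2 scale, and larger differences between the IMQ + BZLF and IMQ + NS samples lie outside them.

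In IMQ + BZLF against control skin, 3 of the 4 genes were higher and none lower, where 9.65% of the genes tested were higher and 10.1% lower. At an unadjusted p below 0.05 and no fold limit, 4 were higher and 0 lower, where 27.4% of the genes tested were higher and 32.2% lower. This comparison shares its control samples with the first and its BZLF samples with the second, so it adds no independent measurement. The log2 fold changes were 2.23 for Gja1 (SE 0.32, 4.69-fold, adjusted p = 0.000741 by limma), 5.56 for Gjb2 (SE 1.03, 47.2-fold, adjusted p = 0.00229) and 5.12 for Gjb6 (SE 0.72, 34.7-fold, adjusted p = 0.000621). Without control replicate 2 they were 2.60, 6.78 and 5.97, that is 6.06-fold, 110.0-fold and 62.6-fold. Gjb5 was higher in every IMQ + BZLF sample than in every control. Its log2 fold change of 0.66 (SE 0.17, 95% interval 0.27 to 1.06, adjusted p = 0.0120 by limma) lay below the fold limit, and its exact two-sided permutation p was 0.0286.

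FPKM is scaled to transcript length, so levels of different genes can be set side by side, here over 15 connexin genes. Ranked by median FPKM, control skin had Gja1 first, then Gjb5, then Gja4, and the ranges of these 3 genes did not overlap. Gjb2 was the fourth of the 15 in control skin and Gjb6 the tenth, and the range of each overlapped those of both neighbours in the order. In IMQ + NS skin Gja1 (median 380.8 FPKM) and Gjb2 (median 377.3 FPKM) shared the top with overlapping ranges. Gjb6 and Gjb5 followed, again overlapping, ahead of Gja3 and Gja4. The order of these 6 genes by median was the same in IMQ + BZLF skin, where the ranges of Gjb5 and Gja3 also overlapped.

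The summed FPKM of the 15 connexins was 88.2, 320.9, 103.6 and 103.8 in control replicates 1 to 4, and 729 to 900.4 in IMQ + NS and 776 to 1031 in IMQ + BZLF samples. Gja1 made up 66.5 ± 5.44% of this sum in control skin (SD, n = 4), 45.5 ± 1.48% with IMQ + NS and 47.5 ± 1.91% with IMQ + BZLF. The Gjb2 share was 10.8 ± 14.3% in control skin, or 3.67 ± 1.56% without replicate 2, and 46.7 ± 1.51% and 44.7 ± 1.83% in IMQ + NS and IMQ + BZLF skin. Gjb2 thus moved from a minor connexin transcript to one as abundant as Gja1. The share of Gjb6 was 0.512 ± 0.464%, 2.81 ± 0.141% and 2.70 ± 0.299% in the same order of groups, and the share of Gjb5 was 12.2 ± 6.01%, 2.34 ± 0.306% and 2.52 ± 0.345%, although the level of Gjb5 itself was not lower.

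**Figure D2:**
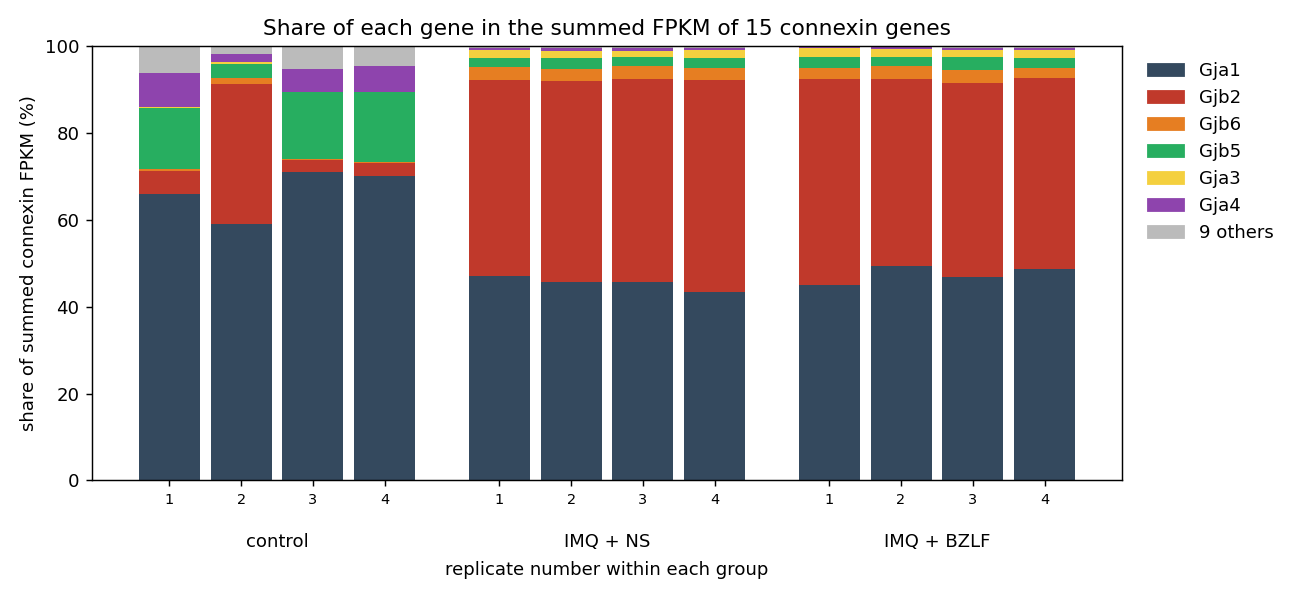
Share (%) of each gene in the summed FPKM of 15 connexin genes, 1 bar per sample, grouped as control, IMQ + NS and IMQ + BZLF. Gja1 and Gjb2 fill over 90% of each bar in the IMQ + NS and IMQ + BZLF samples, and control replicate 2 has a Gjb2 share of 32.2% against 2.72% to 5.48% in the other controls.

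The connexins did not move as 1 block. Of the 15 connexin genes set side by side above, 11 passed the filter on low values, the 4 genes among them. In IMQ + NS against control skin 4 of the 11 rose (Gja1, Gjb2, Gjb6 and Gja3) and 0 fell by limma, with a median log2 fold change of 0.47 beside 0.05 over all genes tested. Of all genes tested, 11.4% rose and 11.0% fell. At an unadjusted p below 0.05 and no fold limit, 5 of the 11 were higher and 3 lower, beside 32.5% and 29.1% of all genes tested. Both counts of calls were the same without control replicate 2. In IMQ + BZLF against IMQ + NS skin 0 rose and 1 fell (Gjb1), where 0.321% and 2.20% of all genes tested did. The median was 0.02 beside -0.02 over all genes. At an unadjusted p below 0.05 and no fold limit 0 were higher and 3 lower, beside 7.96% and 14.8% of all genes tested. In IMQ + BZLF against control skin 4 rose and 2 fell (Gja5 and Gjd3), with a median of -0.49 beside -0.02, where 9.65% and 10.1% of all genes tested did. The 7 tested connexins other than the 4 genes had lower medians. These were -0.40 in IMQ + NS against control, -0.28 in IMQ + BZLF against IMQ + NS and -0.55 in IMQ + BZLF against control skin.

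Gja3 (Cx46), known as a lens connexin, lies next to Gjb2 on chromosome 14, 40.6 kb away. It measured 0.196, 1.23, 0.00869 and 0.0350 FPKM in control replicates 1 to 4, and 10.6 to 15.0 FPKM in IMQ + NS and 13.4 to 21.5 FPKM in IMQ + BZLF samples. Here too control replicate 2 was the highest control and no IMQ-treated sample overlapped with the controls. Its log2 fold change in IMQ + NS against control skin was 5.57 (SE 0.69, adjusted p = 0.000249 by limma), on controls near the constant of 0.1, and 6.33 without control replicate 2. The difference between IMQ + BZLF and IMQ + NS was 0.30 (SE 0.16, adjusted p = 0.295). Gja3, Gjb2 and Gjb6 thus all rose, whereas Cryl1, the next protein-coding gene at 141.4 kb from Gjb6, differed by 0.12 on the log2 scale (adjusted p = 0.400 by limma). Of 6 genes tested around the connexin loci (Cryl1, Ift88, Zmym2, Zmym5, Hsf2 and Serinc1, while Dlgap3 did not pass the filter), 0 passed both limits by limma in any of the 3 comparisons. Of all genes tested, 11.4% rose and 11.0% fell in IMQ + NS against control skin. The shares were 0.321% and 2.20% in IMQ + BZLF against IMQ + NS, and 9.65% and 10.1% in IMQ + BZLF against control. Without control replicate 2, 1 of the 6 fell past both limits in IMQ + NS against control. At an unadjusted p below 0.05 in that comparison, 0 of the 6 were higher and 2 lower, beside 32.5% and 29.1% of all genes tested. The same counts were 1 and 0 in IMQ + BZLF against IMQ + NS, beside 7.96% and 14.8%. They were 2 and 2 in IMQ + BZLF against control skin, beside 27.4% and 32.2%. With 6 genes, counts this small are not read as a result about the neighbours.

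Gja4 (Cx37), a connexin of arterial endothelium that lies on chromosome 4 as Gjb5 does, was at 6.22, 4.68 and 3.19 FPKM in control, IMQ + NS and IMQ + BZLF skin. Its log2 differences were -0.40 for IMQ + NS against control and -0.54 for IMQ + BZLF against IMQ + NS (adjusted p = 0.0189 by limma). For IMQ + BZLF against control it was -0.94 (adjusted p = 0.000366 by limma). All were short of the fold limit, and the groups did not overlap in any of these comparisons. The mean of Gjb5 was higher, not lower, than in control in both treated groups, also short of that limit.

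The connexins that fell past both limits were low throughout. Gja5 (Cx40), another connexin of arterial endothelium, was at 1.29, 1.06 and 0.493 FPKM in control, IMQ + NS and IMQ + BZLF skin and fell in IMQ + BZLF against control (log2 fold change -1.29, adjusted p = 0.00318 by limma). The summed levels of 6 endothelial markers were 82.8 to 113 FPKM in control, 68.6 to 82.9 FPKM in IMQ + NS and 53.3 to 81.1 FPKM in IMQ + BZLF skin, and 0 of the 6 passed both limits in any comparison by limma, while 1 fell in IMQ + BZLF against control without control replicate 2. At an unadjusted p below 0.05 and no fold limit, 5 of them were lower in IMQ + NS and 6 in IMQ + BZLF against control, beside 29.1% and 32.2% of all genes tested. Between IMQ + BZLF and IMQ + NS, 1 was higher and 2 were lower at that p, beside 7.96% and 14.8% of all genes tested. The part of endothelial cells in the Gja4 and Gja5 values was not tested. Gjd3 was at 0.386, 0.197 and 0.134 FPKM and fell by 1.06 in IMQ + BZLF against control skin (adjusted p = 0.00288 by limma), a call that was lost without control replicate 3 or IMQ + BZLF replicate 1. Gjb1 (Cx32), known from liver and Schwann cells, was at 0.349, 0.494 and 0.174 FPKM. It fell by 1.08 in IMQ + BZLF against IMQ + NS skin (adjusted p = 0.0196), a call that was lost without IMQ + BZLF replicate 3, IMQ + NS replicate 2 or IMQ + NS replicate 4.

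**Figure D3:**
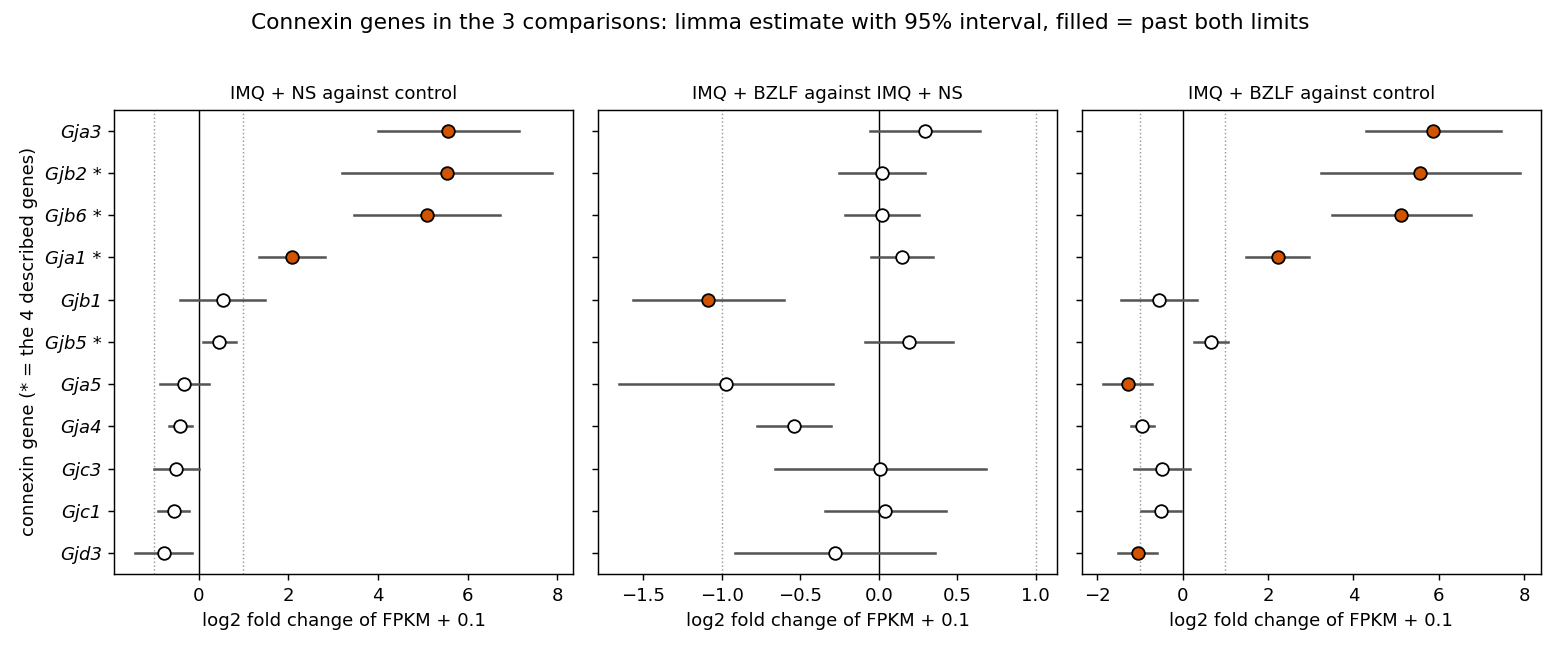
Log2 fold changes of FPKM + 0.1 with 95% intervals for 11 connexin genes in the 3 comparisons, with dotted lines at 1 and -1 and filled points for genes past both limits. Gja3, Gjb2, Gjb6 and Gja1 lie above the limit against control in both treated groups, and 1 gene, Gjb1, is past the limits between IMQ + BZLF and IMQ + NS. The 3 panels have different scales.

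Pannexins form channels of a separate family that release ATP. Panx1 rose from 6.36 ± 2.02 to 14.7 ± 1.31 FPKM in IMQ + NS against control skin (SD, n = 4; log2 fold change 1.24, adjusted p = 0.000705 by limma) and was at 12.5 ± 1.08 FPKM in IMQ + BZLF skin, a difference from IMQ + NS of -0.23 (adjusted p = 0.153). Panx3 did not pass both limits in any of the 3 comparisons, and Panx2 did not pass the filter. Among 13 genes whose products bind or modify connexins, 1 rose and 1 fell in IMQ + NS against control skin, where 11.4% and 11.0% of all genes tested did, and the median log2 fold change was 0.13. They were Cdh1 (E-cadherin, 29.6 to 67.4 FPKM, log2 fold change 1.21) and Cav1 (caveolin, 228.7 to 103.4 FPKM, -1.13). Tjp1, the scaffold that binds the tail of Gja1, differed by 0.91 on the log2 scale, just below the fold limit. None of the 13 passed both limits by limma between IMQ + BZLF and IMQ + NS skin. Of all genes tested, 0.321% rose and 2.20% fell there. At an unadjusted p below 0.05 and no fold limit, 4 were higher and 3 lower, beside 7.96% and 14.8% of all genes tested. Against control, IMQ + BZLF skin had 1 higher (Cdh1) and 0 lower of the 13, where 9.65% and 10.1% of all genes tested were. At an unadjusted p below 0.05 there were 7 higher and 2 lower, beside 27.4% and 32.2% of all genes tested.

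Gja1, Gjb2 and Gjb6 were higher in both treated groups and in control replicate 2 than in controls 1, 3 and 4. The sums of inner root sheath, hair shaft, proliferation and melanocyte markers shared this order, as did the sum of Krt6a, Krt6b, Krt16 and Krt17. Inner root sheath markers summed to 8329 to 10587 FPKM in IMQ + NS and 10291 to 14553 FPKM in IMQ + BZLF skin, and 8 of 8 rose against control in both. Of 9 hair shaft markers, 9 rose in both, their sum being 13.3 to 32.2 FPKM in controls 1, 3 and 4, 298.7 FPKM in control 2, 6117 to 9006 FPKM in IMQ + NS and 8251 to 12680 FPKM in IMQ + BZLF skin. Between IMQ + BZLF and IMQ + NS, 0 of either list passed both limits by limma, where 0.321% of all genes tested rose and 2.20% fell. At an unadjusted p below 0.05, 4 inner root sheath and 0 hair shaft markers were higher and none lower. Of all genes tested, 7.96% were higher and 14.8% lower at that p. The sums of 6 companion layer and outer root sheath markers overlapped between all 3 groups, at 467.4 to 593.3 FPKM in control, 548.2 to 680.1 FPKM in IMQ + NS and 537.5 to 655.3 FPKM in IMQ + BZLF skin. Of these 6, 3 rose and 1 fell against control in both treated groups, and 4 rose and 1 fell without control replicate 2. Proliferation markers summed to 93.7 to 109 FPKM in IMQ + NS and 79.6 to 100.1 FPKM in IMQ + BZLF skin, where 5 and 3 of 6 rose against control, and 6 of 6 in both without control replicate 2. Melanocyte markers, whose sum was 42.7 to 63.6 FPKM in controls 1, 3 and 4 and 253 FPKM in control 2, rose in 4 of 5 in both treated groups. Against control, 11.4% of all genes tested rose and 11.0% fell in IMQ + NS skin, and 9.65% and 10.1% in IMQ + BZLF skin. The part of follicle or cycling cells in the connexin values was not tested.

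Krt6a, Krt6b, Krt16 and Krt17 also rose against control in both treated groups, but their sum was lower in IMQ + BZLF than in IMQ + NS skin. Together they were at 190 to 251 FPKM in controls 1, 3 and 4 and 615.6 FPKM in control 2. They were at 2344 to 4207 FPKM in IMQ + NS and 1140 to 1392 FPKM in IMQ + BZLF skin. All 4 rose against control in both treated groups, where 11.4% (IMQ + NS) and 9.65% (IMQ + BZLF) of all genes tested rose. In IMQ + BZLF against IMQ + NS skin 3 of the 4 fell, where 2.20% of all genes tested did. The median log2 fold change of the 4 was -3.40 there, a larger fall than that of the sum. Neutrophil markers summed to 18.3 to 29.2 FPKM in control, 1592 to 4935 FPKM in IMQ + NS and 47.1 to 54.6 FPKM in IMQ + BZLF skin. Of these markers, 6 of 6 rose in IMQ + NS against control, beside the same 11.4%. In IMQ + BZLF against IMQ + NS 6 of 6 fell, beside the same 2.20%. On the log2 scale the middle of the 6 changes was 3.01 for the rise and -2.99 for the fall. Both were smaller in size than the change of the sum, which gives most weight to the genes with the highest values. Whether this sum follows the number of neutrophils was not tested. The sum of the neutrophil markers in control replicate 2 was 21.5 FPKM, within the range of the other controls. Dermal fibroblast markers, whose cells also carry Gja1, summed to 13085 to 18643 FPKM in control, 3681 to 4890 FPKM in IMQ + NS and 4286 to 8109 FPKM in IMQ + BZLF skin. In IMQ + NS against control skin 5 of 6 fell, where 11.0% of all genes tested did.

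**Figure D4:**
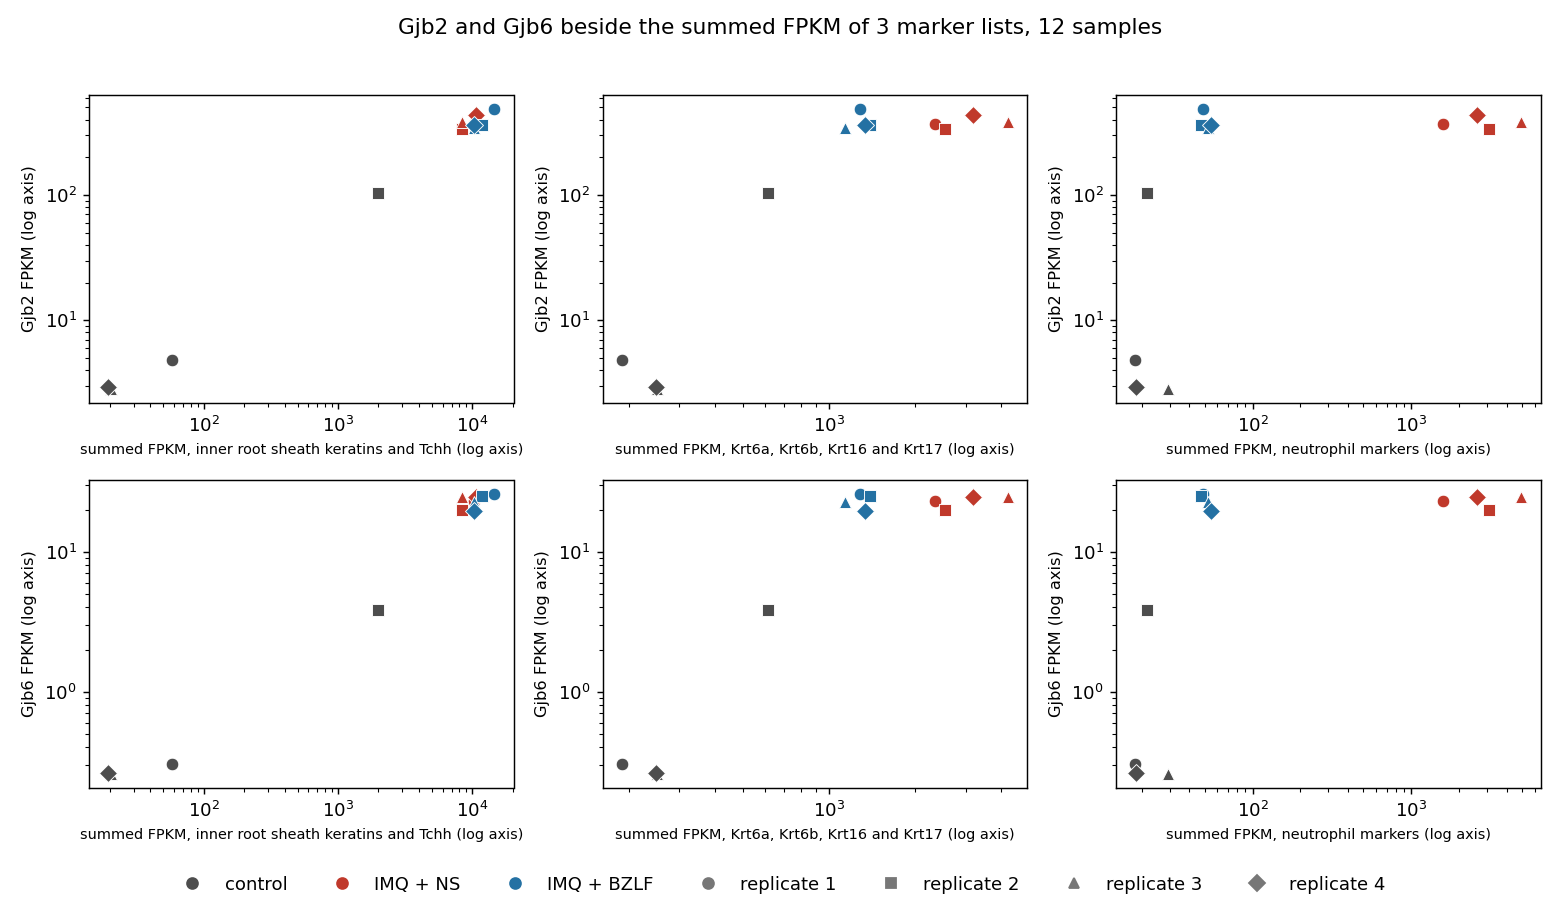
FPKM of Gjb2 (top) and Gjb6 (bottom) against summed FPKM in 12 samples, all axes logarithmic. The sums are those of inner root sheath markers, of Krt6a, Krt6b, Krt16 and Krt17 (keratin panels) and of neutrophil markers. Control replicate 2 lies between the other controls and the IMQ-treated samples in the inner root sheath panels (1974 FPKM) and in the keratin panels (615.6 FPKM), and with the other controls on the neutrophil axis, while IMQ + BZLF and IMQ + NS samples separate along the keratin and neutrophil axes and overlap in Gjb2 and Gjb6.

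The patterns of the genes over the 12 samples were compared by Pearson's r on log2(FPKM + 0.1), as a description, since the samples fall into a control and an IMQ-treated cluster and share their libraries. Gja1, Gjb2 and Gjb6 were alike (r of 0.985 to 0.994 between pairs), and Gjb5 was less like them (r of 0.536 to 0.629). The genes nearest to Gjb2 were Krt71 (r = 0.999) and Krt27 (0.998), both keratins of the inner root sheath, and Slc7a1 (0.998), a cationic amino acid transporter. Those nearest to Gjb6 were Tgm6 (0.999), a transglutaminase, Itga3 (0.998), an integrin subunit that binds the basement membrane, and Dsg4 (0.998), the desmoglein of the hair shaft. Spearman's rank correlation was lower for these genes. With Gjb2 it was 0.832 for Krt71, 0.776 for Krt27 and 0.909 for Slc7a1. With Gjb6 it was 0.916 for Tgm6, 0.909 for Itga3 and 0.825 for Dsg4. Krt71 itself was at 638.3 FPKM in control replicate 2, with a control mean of 166.1 FPKM and an IMQ + NS mean of 3090 FPKM. Nearest to Gja1 were Rai14 (0.998), Flrt3 (0.997) and Gpsm2 (0.997). Nearest to Gjb5 were Homer2 (0.965), Dapl1 (0.958) and Slc38a3 (0.940), which like Gjb5 were below their control mean in control replicate 2, for example Dapl1 at 70.4 FPKM against a control mean of 112.7 FPKM.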

How the data were processed

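The deposited table gives FPKM per gene for 12 skin samples, 4 per group, computed by the authors and not log transformed. The study's methods name Bowtie2 alignment to mRNA and lncRNA transcripts and eXpress, whereas the submitters' processing notes list fastp, HISAT2, HTSeq, R 3.2.0 and mm10. The extraction reagent and library kit also differ between the 2 sources, and other versions are not given in the sources used here. All 12 value columns belonged to a sample.

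The 15288 of 18505 genes whose mean FPKM over all samples reached 0.1 were tested on log2(FPKM + 0.1) with limma 3.58.1 in R 4.3.3, with a variance trend, separately for each of the 3 pairs of groups, two-sided, with Benjamini-Hochberg adjustment over all genes tested. A call needed an adjusted p under 0.05 and a log2 difference of more than 1 in either direction. The constant of 0.1 understates the fold of low genes. The counts behind the FPKM were not used here, so no interval for counting error is given. Single genes were also compared by an exact two-sided permutation test over 70 assignments. The procedure was tested on simulated data with normal noise of the same spread in every group. Changes were planted only in genes well above the constant of 0.1. That test therefore does not cover an outlying library such as control replicate 2, or genes with control values near the constant. Labels number the samples of a group without saying whether each is a separate mouse, so p-values measure the spread between these samples, which may be technical.

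The 4 genes, the gene lists and the named genes were chosen with earlier results of these data known. Named were the 4 genes, listed connexins, pannexins, connexin partners and locus neighbours, and the 3 genes with the highest r to each gene. Symbols were matched to RefSeq (18369 of 18505), which also gave the promoter windows. Some genes of the lists are not reported here and were left out of every list count and sum. Protein identity between the 4 genes was not analysed here. Figures were drawn with Python 3.11.15, pandas 2.3.3 and matplotlib 3.10.9. Alternatives were other constants, filters, scalings, variance models and call rules, all samples in 1 fit, a replicate block, and each sample left out. The counts of connexins called under each alternative were added after the data were seen.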

Additional observations from a re-analysis of the deposited data

Results flagged for a closer look

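Sets of 4 samples were screened with Dixon's ratio (limit 0.829) for a sample far from the other 3, over 33 sets of a connexin gene and a group. Chance flags about 1 in 20 such sets, and 7 were flagged. In control replicate 2, Gja1 was at 189.6 FPKM against 58.1 to 73.5 FPKM in the other controls, Gjb2 at 103.4 against 2.82 to 4.83 FPKM, Gjb6 at 3.87 against 0.258 to 0.303 FPKM, and Gja3 at 1.23 against 0.00869 to 0.196 FPKM. These 4 share 1 library, which was also high in inner root sheath, hair shaft and proliferation markers, and their part in the values was not tested. In IMQ + BZLF replicate 1, Gjb2 was at 487.1 FPKM against 345.8 to 365.3 FPKM in the other 3 samples. Gjc3 was at 0.445 FPKM in control replicate 4 against 0.683 to 0.705 FPKM in the other controls. Gjd3 was at 0.383 FPKM in IMQ + NS replicate 2 against 0.129 to 0.146 FPKM in the other 3 samples.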

How the results depend on the processing

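Gja1, Gjb2 and Gjb6 stayed past both limits in IMQ + NS and in IMQ + BZLF against control skin under all 21 alternatives run for each. Leaving out each sample in turn gave log2 fold changes in IMQ + NS against control of 1.88 to 2.45 for Gja1, 5.04 to 6.76 for Gjb2 and 4.79 to 5.95 for Gjb6. Gjb5 passed with no fold limit (0.47 for IMQ + NS and 0.66 for IMQ + BZLF against control). Between IMQ + BZLF and IMQ + NS the sign of the small differences changed for Gjb2 without IMQ + BZLF replicate 1 (-0.088) or IMQ + NS replicate 2 (-0.04), so that leaving out samples gave -0.088 to 0.091. It changed for Gjb6 without IMQ + BZLF replicate 1 (-0.03), IMQ + BZLF replicate 2 (-0.02) or IMQ + NS replicate 2 (-0.050), with a range of -0.050 to 0.10. Genes called numbered 3418, 385 and 3017 in IMQ + NS against control, IMQ + BZLF against IMQ + NS and IMQ + BZLF against control. They were 2191, 205 and 1844 with a constant of 1, and 8569, 986 and 8098 with no fold limit. Leaving out samples gave 252 to 405 in the second comparison, the lowest without IMQ + NS replicate 3. Connexins called lower in IMQ + NS against control, 0 in the fit reported, numbered 1 with a constant of 0.01, 3 with no fold limit, and 0 to 1 when samples were left out, the 1 being without IMQ + NS replicate 2. In IMQ + BZLF against IMQ + NS, 1 in the fit reported, they numbered 0 with a constant of 1, a mean FPKM of at least 1 or all 12 samples in 1 fit, 2 with no fold limit, and 0 to 1 when samples were left out. In IMQ + BZLF against control, 2 in the fit reported, they numbered 0 with a constant of 1 or a mean FPKM of at least 1, 3 with equal sums, quantile normalization or no fold limit, and 1 to 2 when samples were left out. A constant of 1 compresses, and the filter at 1 removes, the low connexins concerned. Connexins called higher numbered 4 to 5, 0 and 4 to 5. Rescaling to equal sums moved the median of all genes by -0.13 in IMQ + NS against control, and no sign of the 4 genes changed with the scaling.

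Samples with the same number deviated together in part. For numbers 1 to 4, r was -0.085, -0.152, 0.184 and 0.111 in IMQ + NS against control. It was 0.094, -0.025, 0.174 and 0.260 in IMQ + BZLF against IMQ + NS, and -0.067, -0.077, 0.176 and 0.157 in IMQ + BZLF against control. Numbers 3 and 4 correlated best with their own number in all 3 comparisons. Number 1 did so in IMQ + BZLF against IMQ + NS alone, and number 2 in none. Whether samples of the same number share a batch was not tested. With the replicate block 3414, 382 and 2984 genes were called in the 3 comparisons, and Gja1, Gjb2 and Gjb6 passed against control. The adjusted p of Gjb5 by limma in IMQ + NS against control was 0.0523 with the block, 0.0900 with median ratio scaling, 0.105 with equal sums, 0.184 with quantile normalization and 0.0201 to 0.0884 when samples were left out. Without counts, no counting error can be given for the lowest values, among them control Gjb6 and Gja3.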
